A study of Mus musculus with 59 samples.

Results

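The genes described here are Srsf2, Srsf7, Srsf10, Tra2a, Rbm5, Rbm6, Rbm25, Rbm26 and Rbm27, a set of 9 RNA-binding protein genes among the 4484 genes of the deposited table. They were chosen by name from their log2 levels over zeitgeber time in these same libraries, so their course over time is a description and supports nothing by itself. RNA was sequenced from homogenised medial prefrontal cortex of adult wild-type mice of the inbred strain C57BL/6J, and the series asks how transcripts vary over the day. The 12 groups were males and females at zeitgeber time (ZT) 2, 6, 10, 14, 18 and 22, with 5 libraries per group apart from 4 for females at ZT10, or 59 in all. No group carried a treatment or an engineered allele. By convention ZT0 is the time of lights on, and the light schedule is not given in the labels. The labels leave unsaid whether each library is a separate mouse, and the titles carry animal numbers that repeat within every group. Each library was treated as a separate sample, so the p-values below speak for the spread between libraries, which may be partly technical. In bulk tissue, fewer cells of a type and less RNA per cell cannot be told apart.

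SR proteins bind exonic enhancers through an RNA recognition motif and recruit the spliceosome through a tail rich in arginine and serine, which is switched by phosphorylation. Many of their genes also make transcripts with a premature stop codon that are degraded, a form of autoregulation that gene-level counts do not separate from coding transcripts. Proteins named RBM share the RNA recognition motif but differ in role, and the name alone does not make a gene a splicing factor. In rodents, the activity of SR proteins is known to follow body temperature over the day.

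The set falls into 3 kinds by known role. Srsf2 (ENSMUSG00000034120, chromosome 11, 116849901 to 116853094, minus strand) and Srsf7 (ENSMUSG00000024097, chromosome 17, 80200080 to 80207307, minus strand) encode classical SR proteins, Srsf7 with a zinc knuckle. Srsf10 (ENSMUSG00000028676, chromosome 4, 135855747 to 135869908, plus strand) encodes an SR protein that represses splicing when dephosphorylated, as known from human cells. Tra2a (ENSMUSG00000029817, chromosome 6, 49243924 to 49264033, minus strand) encodes a relative of Drosophila transformer-2 that binds GAA-rich enhancers. Rbm5 (ENSMUSG00000032580, chromosome 9, 107740371 to 107770996, minus strand) and Rbm6 (ENSMUSG00000032582, chromosome 9, 107773559 to 107873237, minus strand) encode related splicing regulators and lie side by side, 2562 bases apart. Rbm25 (ENSMUSG00000010608, chromosome 12, 83631236 to 83683123, plus strand) encodes a protein that associates with the U1 snRNP in human cells. Rbm26 (ENSMUSG00000022119, chromosome 14, 105106751 to 105177327, minus strand) and Rbm27 (ENSMUSG00000024491), whose position is given with its values, encode zinc-finger proteins known in human cells as partners of a complex that hands polyadenylated RNA to the nuclear exosome, so the label of splicing factor is loose for them. All coordinates are in GRCm38 with the gene models of GENCODE release M21.

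Promoters are shown for the genes whose courses stood out most, Srsf2 and Tra2a by their fitted rhythm and Srsf7 and Srsf10 because their levels moved together between libraries. The sequences are from RefSeq on GRCm38.p6, 5′ to 3′ on the gene's strand, from 250 bases before the transcription start to 30 bases after it. Capitals mark matches to the motifs named after them. The 4 regions are chr11:116853065-116853344 on the minus strand for Srsf2, chr6:49264023-49264302 on the minus strand for Tra2a, chr17:80207276-80207555 on the minus strand for Srsf7 and chr4:135855821-135856100 on the plus strand for Srsf10.
Srsf2: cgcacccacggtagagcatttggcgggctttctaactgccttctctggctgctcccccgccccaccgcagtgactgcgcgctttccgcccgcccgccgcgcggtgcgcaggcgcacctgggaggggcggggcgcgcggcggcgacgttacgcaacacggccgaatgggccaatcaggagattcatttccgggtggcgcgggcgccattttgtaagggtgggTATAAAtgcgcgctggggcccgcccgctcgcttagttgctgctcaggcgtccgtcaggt
Tra2a: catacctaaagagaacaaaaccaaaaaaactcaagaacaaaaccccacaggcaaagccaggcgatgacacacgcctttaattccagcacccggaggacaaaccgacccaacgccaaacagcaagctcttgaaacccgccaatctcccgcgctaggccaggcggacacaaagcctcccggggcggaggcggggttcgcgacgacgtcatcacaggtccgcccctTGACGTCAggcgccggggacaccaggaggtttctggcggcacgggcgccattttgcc
Srsf7: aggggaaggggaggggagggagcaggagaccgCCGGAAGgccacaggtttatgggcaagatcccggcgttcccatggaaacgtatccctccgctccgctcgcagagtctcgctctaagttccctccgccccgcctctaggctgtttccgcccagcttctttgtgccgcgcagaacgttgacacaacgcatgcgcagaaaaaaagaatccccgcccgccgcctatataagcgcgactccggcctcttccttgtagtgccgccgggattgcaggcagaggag
Srsf10: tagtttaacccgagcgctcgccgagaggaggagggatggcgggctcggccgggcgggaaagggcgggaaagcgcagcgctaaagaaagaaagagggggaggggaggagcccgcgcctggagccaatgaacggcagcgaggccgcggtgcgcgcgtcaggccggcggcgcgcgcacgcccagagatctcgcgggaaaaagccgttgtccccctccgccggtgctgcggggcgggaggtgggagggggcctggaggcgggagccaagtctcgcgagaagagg

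Of the 9 genes, 8 were matched to a promoter of the RefSeq table, and 6 motifs were searched on both strands over the whole 300 bases that the table holds per promoter, up to 50 bases after the start. None of the 8 held the E-box CACGTG, the element bound by the clock activators, which 7.15% of all 32851 promoters held, nor the ROR and REV-ERB half-site AGGTCA, which 16.3% held. Tra2a held a full cAMP response element, TGACGTCA, with its first base at position -27, a match that 1.79% of promoters had. It also held an E-box variant, CACGTT, at position 33, just past the stretch shown, and 4.68% of promoters had that. Srsf2 held the TATA box letters TATAAA at position -29, and Rbm25 and 13.6% of all promoters held these letters too. Variants, such as the letters TATATAAG in the stretch shown for Srsf7, were not searched. Srsf7 held the ETS core CCGGAAG at position -218, against 8.86% of promoters, and Srsf10 held none of the 6. The 4 windows had GC contents of 69.3% (Srsf2), 60% (Tra2a), 62.7% (Srsf7) and 71.3% (Srsf10), and the median over all promoters was 52.7%. The E-box, its variant and the cAMP response element have the letters ACGT in common, and none of the matches overlapped another. A match describes the letters and not a bound site.

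The table holds the log2 of a scaled number of reads plus 1, and the underlying reads could be recovered. They came to a median of 9015221 per library (6317420 to 13325019), of which 61.4% to 91.2% belonged to 6 abundant noncoding genes such as Gm42418 and Gm23935, which left 1009789 to 4253935 reads for all others. Of 41 markers of cell types, 13 were in the table, among them Slc17a7 of glutamatergic neurons and Gad1 and Gad2 of GABAergic neurons. No marker of the neighbouring striatum, the olfactory bulb, endothelium or blood was in the table, so these could not be checked. The libraries whose titles carry the serial numbers 49 to 60 lay toward the high end of the first principal component, at 10.9 to 32.5 (n = 11). Those numbered 1 to 48 lay at -35.6 to 25.6 (n = 48), so the ranges overlapped. The component comes from the same values as the tests below and gives no independent ground for this split. Results that rest on the numbers 49 to 60 are given with and without them. What the serial number stands for is not given in the labels.

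Each gene of the set was read well enough to follow. The median reads per library ran from 362 for Srsf2 and for Tra2a to 724 for Srsf7, and the lowest count of any of these genes in any library was 142. Per kilobase of exon, Srsf7 had the highest mean scaled count of the set, 658, ahead of Srsf2 with 380, Srsf10 with 305, Rbm27 with 245, Tra2a with 165 and Rbm26 with 154, and lowest came Rbm5, Rbm6 and, with 69.6, Rbm25. These levels use all annotated exons, and in Tra2a, Rbm5, Rbm25 and Rbm6 between 69.0% and 74.0% of the exonic bases lie outside the coding transcripts, against 32.3% or less in the other 5. The order of the genes below Srsf7 therefore depends on which exons are counted. The annotation lists 13 retained-intron and 4 decay-prone transcripts for Rbm5, and 3 and 1 for Srsf7, all of which the gene count would add up. Of the exonic bases of Srsf2, 25.3% overlap Mettl23 and Mfsd11 on the opposite strand. The kit keeps the strand, but the strand setting of the counting is not given in the sources used here, so reads of these neighbours cannot be told apart from those of Srsf2. Overlaps were 5.40% of exonic bases for Rbm26, under 1% for Rbm25 and Rbm27, and 0 for the other 5.

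The first question was how the 9 genes run over the day. By mean level, Srsf2, Srsf10 and Rbm5 were highest at ZT18 and Tra2a at ZT22, and the remaining 5 had fits that did not pass the threshold. A 24 h cosine was fitted to all 59 libraries with sex as a covariate, and amplitudes below are in log2 units, counted between the fitted mean and peak. By the threshold of an adjusted p of 0.05 (limma, Benjamini-Hochberg), 4 of the 9 were called, and the same fit called 81 of the 4273 genes tested, or 1.9%. Nothing is read from that contrast, since the genes were taken from their course over time. Across the set the median amplitude was 0.12, and over all genes tested it was 0.08.

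Among the SR genes, Srsf2 had mean log2 levels of 10.11, 10.08, 10.02, 9.98, 10.28 and 10.27 over the 6 times, in order of the clock. At ZT18 its libraries had a lowest level of 10.16, a median of 10.27 and a highest of 10.48, and at ZT14 a lowest of 9.68, a median of 9.99 and a highest of 10.25 (log2, n = 10 each). The groups overlapped, with 6 of the 10 ZT18 libraries above every ZT14 library and 8 of the 10 ZT14 libraries below every ZT18 library. The mean difference was 1.23-fold, ZT18 over ZT14, and the fitted amplitude was 0.14 ± 0.03 (SE, n = 59) with a peak at ZT21.5. Over both sexes, the step up between ZT14 and ZT18 was abrupt beside the slow decline before it, and ZT18 and ZT22 were nearly level. By their means the sexes ran differently here, but the interaction of sex with the 24 h terms was not called (adjusted p = 0.882, limma, Benjamini-Hochberg). Males had means of 10.08 at ZT10, 9.86 at ZT14 and 10.31 at ZT18, and females 9.95, 10.10 and 10.25 (n = 5 each, 4 for females at ZT10). In order of level, the gap between ZT2 and ZT22 was the only 1 of 45 steps between neighbouring times, over all 9 genes, that was larger than the larger of the SDs.

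Srsf10 had mean log2 levels of 11.13, 10.74, 10.78, 11.04, 11.23 and 11.16 over the same times. Its ZT18 libraries ran from 10.72 with a median of 11.18 up to 11.73, and its ZT6 libraries from 10.05 with a median of 10.81 up to 11.45 (log2, n = 10 each). These spreads overlapped widely, and 2 ZT18 libraries lay above all ZT6 libraries. With 1.41-fold between ZT18 and ZT6 it had the widest range of means in the set, and its amplitude of 0.25 ± 0.06 (SE, n = 59), with a peak at ZT20.2, was also the highest of the 9. Its call was the least secure of the 4, as it ended in 11 of the 59 fits that each left out 1 library (ZT6 male replicates 3 and 5, ZT6 female replicates 3 and 5, ZT10 male replicates 1, 4 and 5, ZT18 male replicates 3 and 4, ZT22 male replicate 1 and ZT22 female replicate 2). The amplitude stayed between 0.23 and 0.27 in those fits.

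Srsf7, the most abundant of the 9 per kilobase, had mean log2 levels of 11.32, 10.98, 10.99, 11.20, 11.24 and 11.13. At ZT2 it ran from 10.86 with a median of 11.28 up to 11.96, and at ZT6 from 10.28 with a median of 11.12 up to 11.53 (log2, n = 10 each). The spreads overlapped over most of their length. Its amplitude was 0.12 ± 0.07 (SE, n = 59) with a peak at ZT20.6, and it was not called.

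Tra2a ran from high levels around lights on to a trough early in the dark phase, with mean log2 levels of 10.24, 10.20, 9.99, 9.89, 10.18 and 10.33 over the 6 times. At ZT22 its libraries had a lowest level of 10.07, a median of 10.32 and a highest of 10.70, and at ZT14 a lowest of 9.63, a median of 9.89 and a highest of 10.32 (log2, n = 10 each). Of the ZT14 libraries, 9 lay below every ZT22 library, and 5 ZT22 libraries lay above every ZT14 library. The means differed 1.35-fold, ZT22 over ZT14. The amplitude was 0.20 ± 0.04 (SE, n = 59) and the fitted peak fell at ZT0.18, later than that of Srsf2 and Srsf10.

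**Figure D1:**
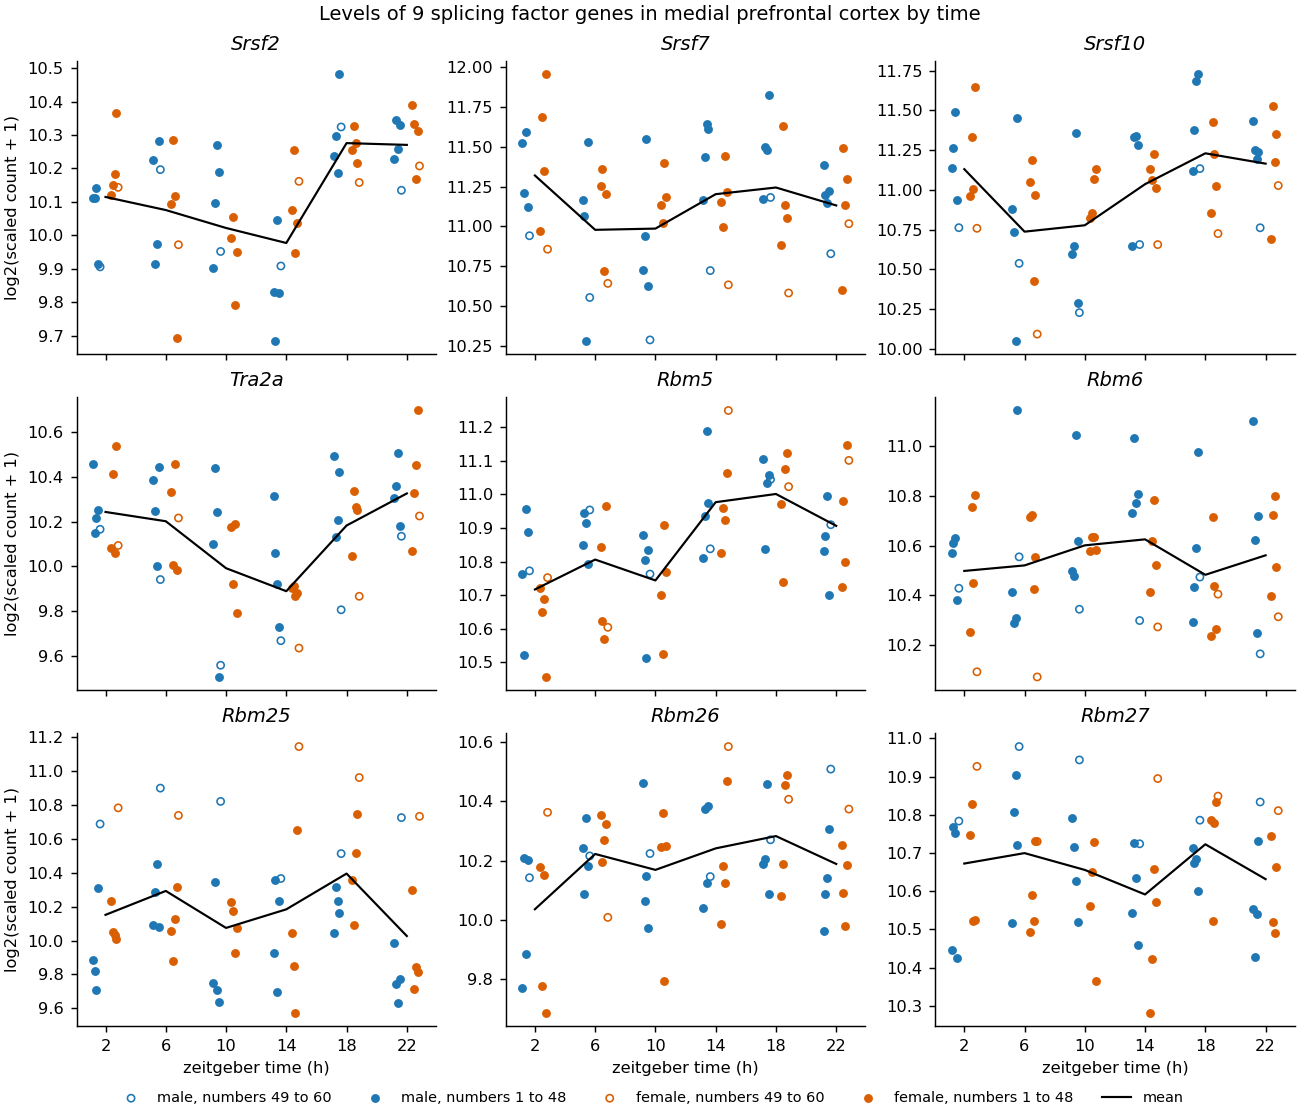
Deposited log2 level of each of the 9 genes (y axis, log2 of the scaled count plus 1) against zeitgeber time (x axis, hours), 1 point per library, males left and females right at each time, open points for the serial numbers 49 to 60, and a line through the means over both sexes. Srsf2 and Tra2a are lowest at ZT14, Srsf10 is lowest at ZT6, Rbm5 is highest at ZT18, and the open points of Rbm25 lie above nearly all others.

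Of the RBM genes, Rbm5 was the one called. Its mean log2 levels were 10.72, 10.81 and 10.74 at ZT2, ZT6 and ZT10, and 10.98 at ZT14 and 10.91 at ZT22 around a maximum at ZT18, which puts the 3 times before ZT12 below the 3 after it. At ZT18 its libraries ran from 10.74 with a median of 11.04 up to 11.12, and at ZT2 from 10.46 with a median of 10.74 up to 10.96 (log2, n = 10 each). Here 8 ZT18 libraries lay above every ZT2 library, and 5 ZT2 libraries lay below every ZT18 library. The means differed 1.22-fold, ZT18 over ZT2, and the amplitude was 0.14 ± 0.03 (SE, n = 59) with a peak at ZT17.2, earlier than the called SR genes.

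Its neighbour on chromosome 9, Rbm6, did not share that course. The mean log2 levels of Rbm6 were 10.50, 10.52, 10.60, 10.63, 10.48 and 10.56, with an amplitude of 0.05 ± 0.04 (SE, n = 59). Rbm27 (chromosome 18, 42275353 to 42341542, plus strand) was flatter still, with means between 10.59 at ZT14 and 10.72 at ZT18 and an amplitude of 0.02 ± 0.03, below that of all but 5.27% of the genes tested. Rbm26 had its lowest mean, 10.04, at ZT2 and its highest, 10.28, at ZT18, and a fitted amplitude of 0.08 ± 0.04 that peaked at ZT15.1. Rbm25 ranged 1.29-fold between its means of 10.40 at ZT18 and 10.03 at ZT22, but those are adjacent times and its amplitude was 0.04 ± 0.07. In Rbm25 the spread within a time was large, from 9.57 to 11.15 among the 10 libraries of ZT14, and the highest of these carries a serial number of 49 to 60.

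**Figure D2:**
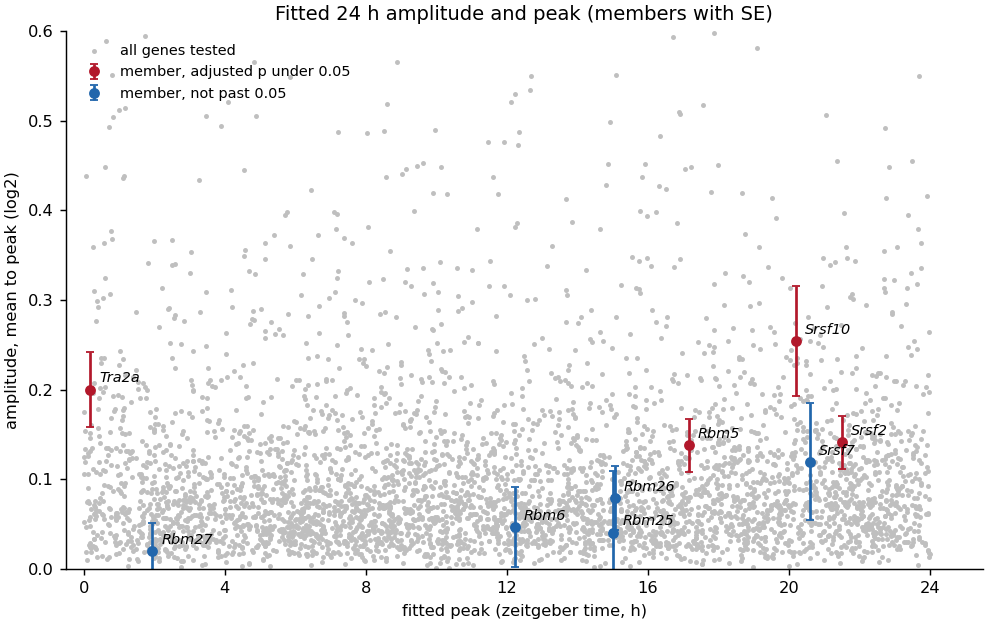
Fitted amplitude (y axis, log2, mean to peak) against fitted peak time (x axis, zeitgeber hours), with the 9 genes named and drawn with their SE and all 4273 genes tested in grey, of which 15 lie above the top of the axis. The called genes Rbm5, Srsf10, Srsf2 and Tra2a peak at ZT17.2, ZT20.2, ZT21.5 and ZT0.18, with amplitudes of 0.14, 0.25, 0.14 and 0.20.

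The called genes had similar fitted peaks in the libraries numbered 49 to 60 and in the others, while the calls changed. These genes were chosen and called from all 59 libraries, so the likeness is a description and no independent support. In the 11 libraries numbered 49 to 60, taken alone, Srsf10 peaked at ZT20.4 with an amplitude of 0.37, and in the 48 numbered 1 to 48 it peaked at ZT20.3 with 0.25. Tra2a had 0.30 at ZT0.94 in the numbers 49 to 60 and 0.19 at ZT23.8 in the numbers 1 to 48. In the numbers 49 to 60 Rbm5 had 0.17 ± 0.07 at ZT17.4 and Srsf2 0.10 ± 0.07 at ZT20.0 (SE, n = 11). In the numbers 1 to 48 Rbm5 had 0.13 ± 0.03 at ZT17.0 and Srsf2 0.15 ± 0.03 at ZT21.7 (SE, n = 48). Without the numbers 49 to 60, 2 of the 9 genes were called, Srsf2 and Tra2a. With reads scaled by library totals, which the abundant noncoding genes dominate, 0 of the 9 were called (limma, where 3 of all genes tested were called, and voom on the main scaling called 4 of the 9), at amplitudes of 0.17 for Srsf2, 0.28 for Srsf10, 0.23 for Tra2a and 0.14 for Rbm5.

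The level of the 9 genes was next compared between the sexes, which the choice of genes did not use. No difference was found in any of them. With time as a factor, 0 of the 9 were called by limma and 0 by voom, 0 had an unadjusted p under 0.05, and each adjusted p was 0.999 (limma, Benjamini-Hochberg), where 1 of all 4273 genes was called, or 0.0234%. Srsf2 averaged 10.11 ± 0.19 in males (SD, n = 30) and 10.14 ± 0.16 in females (SD, n = 29), a difference of -0.03 ± 0.04 on the log2 scale (SE). Rbm25 had the widest difference, -0.10 ± 0.10, with a 95% confidence interval of -0.29 to 0.09, and Rbm6 came next with 0.08 ± 0.06 (-0.05 to 0.21). For Srsf7 the interval ran from -0.16 to 0.21 and for Srsf10 from -0.16 to 0.19, while for Srsf2, Tra2a, Rbm5, Rbm26 and Rbm27 no bound lay beyond 0.13 in either direction. On simulated data of this size, 46 of 100 genes shifted by 0.25 and 90 of 100 shifted by 0.5 were found, so smaller differences would mostly be missed.

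The course over time was then compared between the sexes by the interaction of sex with the cosine and sine terms. Of the 9 genes, 0 were called and 0 had an unadjusted p under 0.05 with limma. The adjusted p ran from 0.741 to 0.957 (limma, Benjamini-Hochberg). Over all 4273 genes the interaction called 0, or 0%, with 180 at an unadjusted p under 0.05. Srsf7 had the smallest unadjusted p of the set (0.0928, limma), where males peaked at ZT19.3 with an amplitude of 0.25 ± 0.09 and females at ZT2.63 with 0.08 ± 0.09 (SE). Srsf10 peaked at ZT20.0 in males and ZT20.6 in females, with amplitudes of 0.36 ± 0.09 in males and 0.15 ± 0.08 in females. Rbm5 peaked at ZT17.2 in both sexes, with 0.09 ± 0.04 in males and 0.19 ± 0.05 in females. Tra2a had 0.18 ± 0.06 at ZT23.9 in males and 0.22 ± 0.06 at ZT0.43 in females, and Srsf2 had 0.12 ± 0.05 at ZT21.9 in males and 0.17 ± 0.04 at ZT21.2 in females. The peaks of the 4 called genes thus lay within about an hour of each other in males and females. They were called by a fit that pooled the sexes, which favours genes whose sexes agree, so this is a description. Among the genes not called, Rbm26 peaked at ZT15.0 in males and ZT15.1 in females. Rbm6 peaked at ZT13.8 in males and ZT8.97 in females, Rbm25 at ZT8.50 and ZT17.2, and Rbm27 at ZT7.69 and ZT22.1.

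The widest differences in level within the set were between the libraries numbered 49 to 60 and those numbered 1 to 48. With the 12 groups as a factor, 6 of the 9 genes were called, 2 higher and 4 lower in the numbers 49 to 60. The fit counts each library as independent although a single run of serial numbers is set against the rest, so its p-values may be too small. No other run was compared in this way. In the comparison of the numbers 49 to 60 with the rest, 54% of all genes tested were called, 23% as higher and 31% as lower. The share in the set thus lies near that of the table. The median difference over all genes was -0.05 on the log2 scale. Scaling by library totals moved that median to 0.36 and the calls to 1965 higher and 64 lower, against 982 higher and 1325 lower as reported, so directions here hold relative to the other genes. It moved each of the 9 differences up alike, by 0.42, which left the distances between the genes as they were. Of the 9, 5 were then called as higher and 0 as lower.

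Rbm25 differed most. Its log2 level had a lowest value of 10.37, a median of 10.74 and a highest of 11.15 in the libraries numbered 49 to 60 (n = 11), and a lowest of 9.57, a median of 10.05 and a highest of 10.75 in those numbered 1 to 48 (n = 48). In each of the 11 groups that hold such a library, it was the highest of its group, and 5 of the 11 lay above every library numbered 1 to 48. The difference was 0.71 ± 0.08 (SE), or 1.63-fold (adjusted p = 3.72e-08, limma, Benjamini-Hochberg), and its p was the smallest of all 4273 genes. Rbm27, an exosome partner, ran from 10.72 with a median of 10.83 up to 10.98 in the numbers 49 to 60, and from 10.28 with a median of 10.63 up to 10.90 in the numbers 1 to 48. All 11 lay above the mean of the other libraries of their group, with a difference of 0.22 ± 0.05 (adjusted p = 2.2e-04, limma, Benjamini-Hochberg). Rbm26, the relative of Rbm27, had a difference of 0.13 ± 0.06 (adjusted p = 0.0902, limma, Benjamini-Hochberg). Of the 59 fits that each left out 1 library, it passed in 1, that without ZT6 female replicate 5 (0.17, adjusted p = 0.0290, limma, Benjamini-Hochberg). Under library totals the differences were 1.13 for Rbm25, 0.63 for Rbm27 and 0.55 for Rbm26, and all 3 passed (for Rbm26 an adjusted p of 0.00577 with limma).

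Srsf7 and Srsf10 differed in the other direction. Srsf7 had a lowest log2 level of 10.29, a median of 10.72 and a highest of 11.18 in the numbers 49 to 60, and a lowest of 10.28, a median of 11.21 and a highest of 11.96 in the numbers 1 to 48. The ranges overlapped, but all 11 libraries lay below the median of the 48. The difference was -0.49 ± 0.09 (adjusted p = 3.83e-05, limma, Benjamini-Hochberg). Srsf10 ran from 10.09 with a median of 10.72 up to 11.13 in the numbers 49 to 60, and from 10.05 with a median of 11.14 up to 11.73 in the numbers 1 to 48, a difference of -0.44 ± 0.10 (adjusted p = 1.5e-04, limma, Benjamini-Hochberg). Under scaling by library totals neither passed, with -0.08 for Srsf7 and -0.02 for Srsf10 (adjusted p = 0.678 and 0.907, limma, Benjamini-Hochberg).

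Tra2a was lower by a log2 difference of -0.27 ± 0.07 (adjusted p = 0.00119, limma, Benjamini-Hochberg), a direction that turned to 0.15 under scaling by library totals. Rbm6 was lower by -0.29 ± 0.08 (adjusted p = 0.00123, limma, Benjamini-Hochberg), and turned to 0.13 there, while 11 of 11 of its libraries lay below the median of the numbers 1 to 48 on the deposited scale. Its neighbour Rbm5 had 0.05 ± 0.05 and Srsf2 had -0.05 ± 0.05 (adjusted p = 0.439 and 0.399, limma, Benjamini-Hochberg). Under library totals Srsf2 turned to 0.37 and Rbm5 had 0.47, both past the threshold there.

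**Figure D3:**
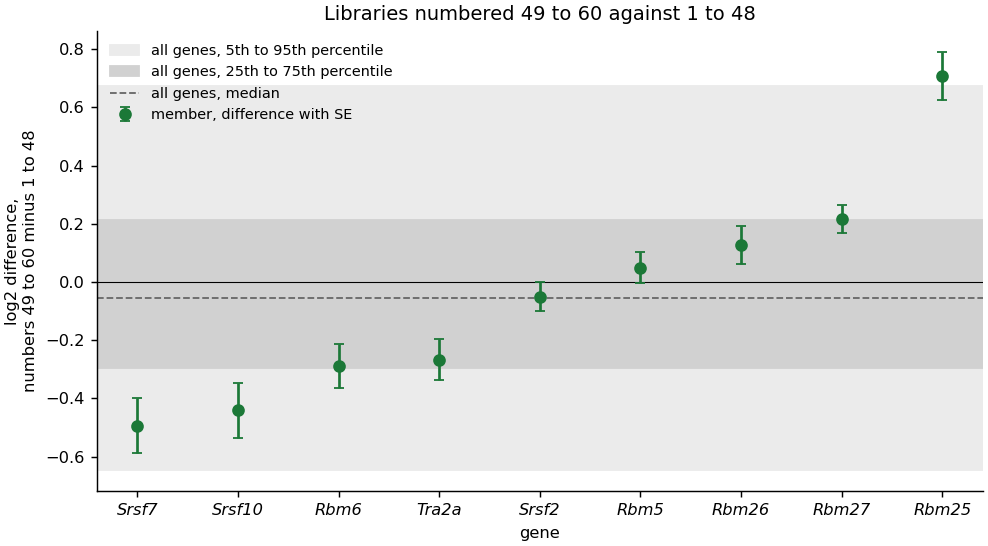
Difference in log2 level between the libraries numbered 49 to 60 and those numbered 1 to 48 (y axis) for each of the 9 genes (x axis), as points with SE, over shaded bands for the middle part of all genes tested and a dashed line at their median of -0.05. Rbm25 at 0.71 lies above the 95th percentile and Srsf7 at -0.49 below the 25th, and under scaling by library totals all 9 points lie 0.42 higher, which puts Srsf2, Tra2a and Rbm6 above 0.

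Other measures moved with the serial number. The 6 abundant noncoding genes took 61.4% to 78.6% of the reads in the numbers 49 to 60, with a median of 70.9%, and 62.0% to 91.2% with a median of 79.5% in the numbers 1 to 48. Of the 13 cell type markers in the table, 5 were higher and 1, the microglial gene P2ry12, was lower (limma, Benjamini-Hochberg). In the numbers 49 to 60 the summed scaled counts ran from 4369 to 5990 for the GABAergic, 6633 to 14153 for the astrocyte and 530 to 1130 for the microglial markers. In the numbers 1 to 48 they ran from 3550 to 6879 for the GABAergic, 4562 to 14564 for the astrocyte and 650.2 to 1619 for the microglial markers. The part of RNA quality, cell makeup and depth in these differences was not tested.

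Because the share of noncoding RNA varied so widely, each gene's level was correlated with it, within each set of serial numbers on its own. Differences between the groups of time and sex were not removed first, so the course over time remains in these values. Of 18 such correlations, 4 had an adjusted p under 0.05 (permutation, Benjamini-Hochberg). The correlation was not computed for genes outside the set, so whether this count is unusual among all genes cannot be said. In the 48 libraries numbered 1 to 48, Rbm25 fell with the share, with Pearson r = -0.53 and Spearman rho = -0.44 (permutation p = 1e-04 for r, adjusted 0.0018, and 0.00226 for rho, adjusted 0.0407). Without the 2 libraries farthest from the median share its r was -0.43 (permutation p = 0.00313). Rbm26 fell too, with r = -0.47 and rho = -0.40 (permutation p = 6.1e-04, adjusted 0.00549, and 0.00552, adjusted 0.0497), and with r = -0.40 without those libraries. Srsf7 went the other way, with r = 0.37 (permutation p = 0.0103, adjusted 0.0464) and r = 0.39 without them, but its rho of 0.28 did not pass (permutation p = 0.0545, adjusted 0.196).

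In the 11 libraries numbered 49 to 60, Rbm5 had r = -0.75 and rho = -0.67 (permutation p = 0.0078, adjusted 0.0464, and 0.0279, adjusted 0.126). Without the 2 libraries farthest from the median share that r was -0.44 (permutation p = 0.234), so the relation rests on them. Rbm25 had r = -0.64 and rho = -0.56 in these 11 libraries, the sign it had in the other set, without passing (permutation p = 0.0319, adjusted 0.0958, and 0.0764, adjusted 0.197). The remaining 13 correlations did not pass either. With reads scaled by totals without the 6 abundant genes, 4 again had an adjusted p under 0.05, but Tra2a in the numbers 1 to 48 came in (r = 0.37, permutation, adjusted p = 0.0456) and Rbm5 in the numbers 49 to 60 dropped out (r = -0.70, adjusted p = 0.0563).

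**Figure D4:**
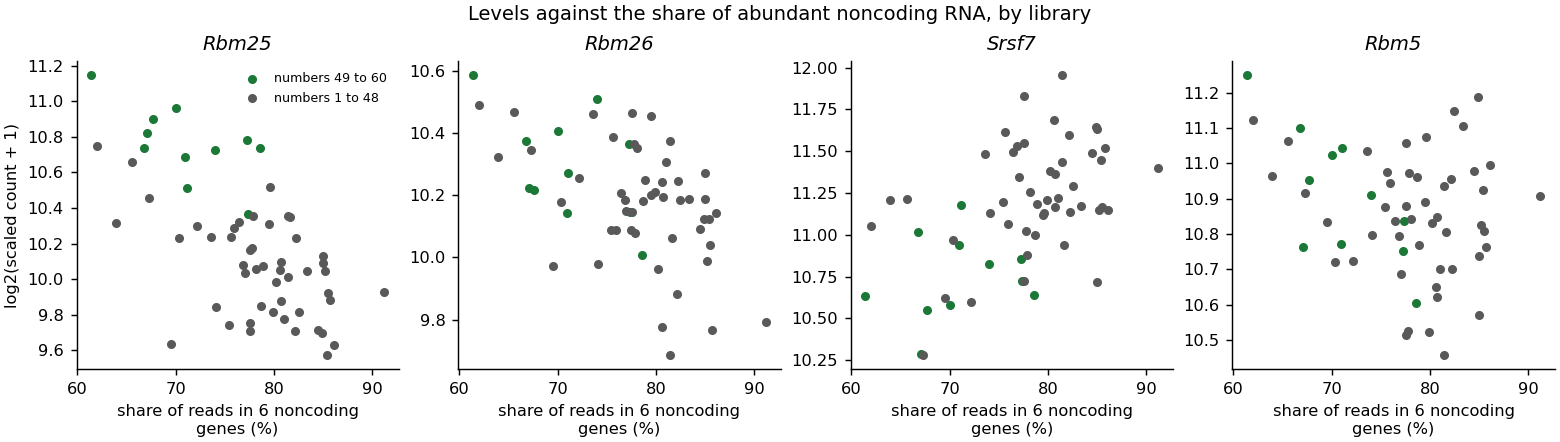
Log2 level (y axis, log2 of the scaled count plus 1) of Rbm25, Rbm26, Srsf7 and Rbm5 against the share of reads in the 6 abundant noncoding genes (x axis, %), 1 point per library, green for the serial numbers 49 to 60 and grey for 1 to 48. In the grey points Rbm25 and Rbm26 fall as the share grows (r = -0.53 and -0.47). The difference of 0.71 between the 2 sets of Rbm25 comes from a fit without the share, so it is not the gap at equal share.

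Libraries of 1 group also differ among themselves, and the deviations from the group means, which hold none of the course over time, show which of the genes move together. Srsf7 and Srsf10 did so most closely. In the 48 libraries numbered 1 to 48 their deviations had r = 0.92 and rho = 0.88 (permutation p = 1e-05 for r, the smallest that the permutations can give, adjusted 2.4e-04 over 72 correlations), and r = 0.90 without the 2 libraries farthest out. Each was the closest of the other 4272 genes to the other. In the 11 libraries numbered 49 to 60, where levels were correlated as they stand since each group holds 1 such library, r was 0.82 and rho 0.86. Those levels still hold the course over time and sex, so this value is a description and no test of the pair apart from that course. The pair lies on different chromosomes, 17 and 4.

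Rbm6 followed both in the numbers 1 to 48, with r = 0.73 with Srsf10 and 0.73 with Srsf7 (permutation, adjusted p = 2.4e-04 for each). In the levels of the numbers 49 to 60, r was 0.32 with Srsf10 and 0.03 with Srsf7. The gene closest to Rbm6 was Mpp6, with r = 0.92, and Srsf10 ranked 291 among the other 4272 genes. The exosome partners Rbm26 and Rbm27 had r = 0.23, and Rbm25 with Rbm26 had 0.45 (permutation, adjusted p = 0.0910). Srsf2, Tra2a and Rbm5, which had called rhythms, had no called correlation with any other of the 9. Over the 36 pairs, 3 were called in the numbers 1 to 48, all positive. The share called among all gene pairs was not computed, so whether this count is unusual cannot be said. The median r of the 36 pairs was -0.06 in the numbers 1 to 48, where that of all gene pairs was 0.00, and the median absolute r was 0.26 against 0.23. Under scaling by library totals the median over all 59 libraries was 0.77, against -0.11 on the deposited scale.

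**Figure D5:**
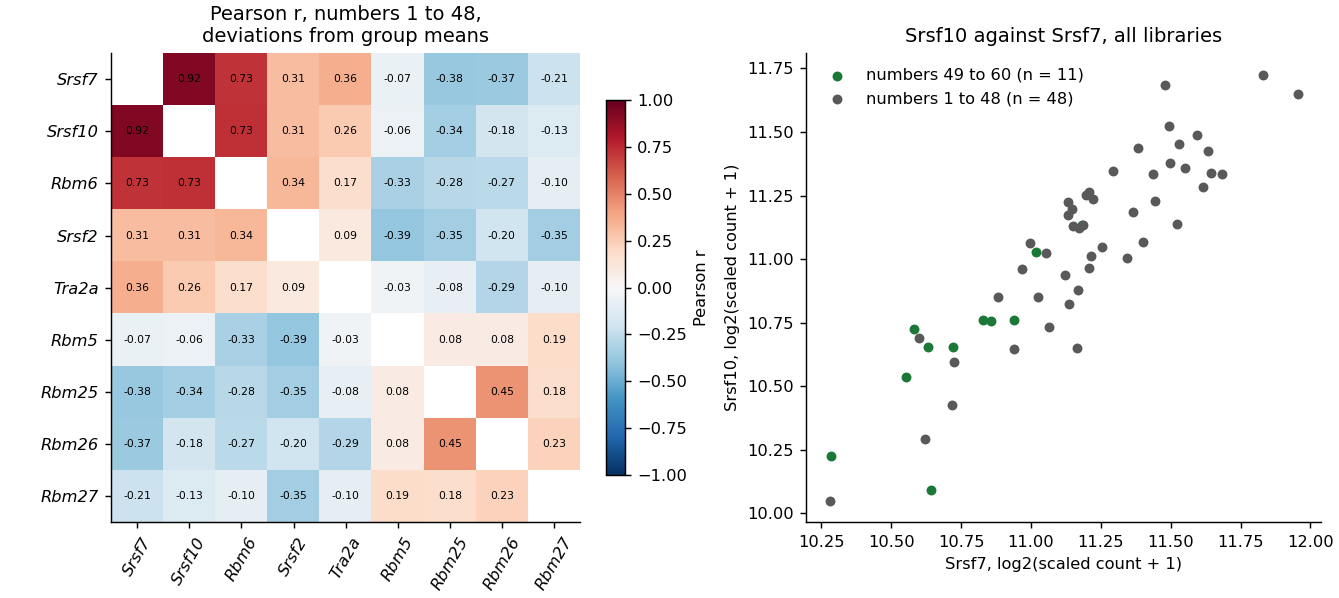
Left, Pearson r between the deviations from group means of each pair of the 9 genes in the 48 libraries numbered 1 to 48 (colour from -1 to 1, values in the cells). Right, the log2 level of Srsf10 (y axis) against that of Srsf7 (x axis) in every library, green for the serial numbers 49 to 60 and grey for 1 to 48. Srsf7, Srsf10 and Rbm6 form the 1 block of high r (0.73 to 0.92), and in the scatter both sets lie along the same band.

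Other splicing genes in the table were followed over the day with the same fit. Of 172 genes on 6 lists, 55 were in the table and tested, of which 1 was called and 5 had an unadjusted p under 0.05 (limma). Over all 4273 genes 81 were called, or 1.9%, and 486 had an unadjusted p under 0.05. The median amplitude of the 55 was 0.05, where that of all genes tested was 0.08.

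By list, none of the 9 other SR protein genes was in the table, and of the SR protein kinases 1 was, Dyrk1a, with an amplitude of 0.01 ± 0.03. Among 8 other Rbm genes 0 were called, and Rbm12b1 came closest with 0.22 ± 0.09 at ZT18.3, followed by Rbm48 with 0.15 ± 0.07 at ZT6.37 (adjusted p = 0.443 and 0.581, limma, Benjamini-Hochberg). Among 17 SR-related and nuclear speckle genes 0 were called and 4 had an unadjusted p under 0.05. They were led by Ddx39b, an RNA helicase of spliceosome assembly and mRNA export, with 0.10 ± 0.03 at ZT4.95, and Acin1, part of a complex deposited on spliced RNA, with 0.20 ± 0.06 at ZT18.0 (adjusted p = 0.0977 and 0.120, limma, Benjamini-Hochberg). Of the fits that each left out 1 library, Ddx39b passed only in that without ZT2 female replicate 2 (adjusted p = 0.0408, limma, Benjamini-Hochberg). Among 17 core spliceosome genes 0 were called and 0 had an unadjusted p under 0.05, with 0.08 ± 0.04 for Sf3b1 of the U2 snRNP and 0.05 ± 0.04 for the Sm protein gene Snrpd3. The 12 splicing regulators with cell type preferences had a median amplitude of 0.05. In the comparison of serial numbers, 24 of the 55 were called as higher in the numbers 49 to 60 and 12 as lower, where 23% of all genes were called as higher and 31% as lower. Their median difference was 0.13 on the deposited scale, and library totals, under which 1965 of all genes were higher and 64 lower, moved genes upward.

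The genes outside the set whose 12 group means ran most like the mean course of the 9 were Tent5a (r = 0.89), Gpr155 (0.85), Spry4 (0.83), Chrm2 (0.83) and Egr1 (0.83), by Pearson r over 12 groups of time and sex. Within the set, Rbm5 (0.72), Srsf2 (0.68) and Srsf10 (0.68) lay closest to that mean and Rbm6 (-0.23) ran against it, although each gene is itself part of the mean. The likeness is a description over points that share libraries.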

How the data were processed

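Each of the 59 libraries is a column of 1 deposited table, whose values are log2 of a scaled read count plus 1, as the values show. Per the labels, RNA was extracted with a Qiagen RNeasy Plus Micro kit and libraries were made with a Takara SMART Stranded Total RNA kit. Per the submitters' processing notes, FastQC, HTSeq, DESeq2 and the build GRCm38 were used. Versions, the aligner, the annotation release and the strand setting are not given in the sources used here. Reads were recovered as whole multiples of each library's smallest step (within 7.25e-06 of a whole number, for values of up to 2000 reads), and served for depth, filters and alternatives. Within groups no 2 libraries were copies of each other, as the lowest chi-square per degree of freedom was 10.6 over 116 pairs.

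The tests cover the 4273 genes that reached 10 recovered reads in 4 or more libraries. They were run with limma 3.58.1 (R 4.3.3, trended and robust) on the values as deposited, with Benjamini-Hochberg adjustment over all of them and a threshold of 0.05. Rhythm was the joint test of 24 h cosine and sine terms, sex was fitted with time as a factor, and serial numbers with the 12 groups as a factor. Recovered reads were tested with limma voom. Correlations used 100000 two-sided permutations (SciPy 1.17.1), and those between pairs of the 9 genes had been planned as a description without a p. Simulated with known changes of 0.25 and 0.5 in 100 genes each, the rhythm fit recovered 66% and 96%, the interaction 72% and 93%, and the serial number fit 28% and 77%.

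The 9 genes, the 6 lists of other splicing genes and the 10 lists of cell type markers were chosen with earlier results of these data known. Named genes were the 9, each list's called genes or else those of smallest rhythm p (up to 2), and the 5 most like the mean course, and some genes that this rule or the marker lists hold are not reported here. Groups and serial numbers came from the titles, where the number 54 is absent. Replicates were numbered by runs of 12 serial numbers.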

Additional observations from a re-analysis of the deposited data

Results flagged for a closer look

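Over the 9 genes and 12 groups, 5 times 1 library of a group lay far from the others by Dixon's criterion, and chance alone flags about 1 in 20. All values are log2 levels. Srsf2 was high in ZT2 female replicate 4, at 10.36, with the next library at 10.18. Tra2a was low in ZT14 female replicate 5, at 9.63, with the next at 9.87. Rbm5 was low in ZT18 male replicate 2, at 10.84, with the next at 11.03. Rbm25 was high in ZT2 female replicate 5, at 10.78, with the next at 10.23. Rbm27 was low in ZT18 female replicate 2, at 10.52, with the next at 10.78. The libraries of Tra2a and Rbm25 named here belong to the serial numbers 49 to 60, in which Rbm25 was higher and Tra2a lower on the deposited scale, a direction that turned for Tra2a under scaling by library totals.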

How the results depend on the processing

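Under scaling by library totals, 0 of the 9 genes and 0 of the 55 other splicing genes were called for rhythm. The serial number difference moved up by 0.42 for each of the 9, to 0.37 for Srsf2, 0.15 for Tra2a and 0.13 for Rbm6 past 0, and the median r of the 36 pairs moved to 0.77. Without the numbers 49 to 60, 2 of the 9 and 0 of the 55 were called for rhythm, and the first 2 principal components as covariates gave 5 and 7. Over all genes the rhythm count was 81, with 3 under library totals, 50 without those libraries and 499 with the components. The cause of these changes was not tested. With each library left out in turn, 3 to 4 of the 9 and 1 to 2 of the 55 were called for rhythm, 6 to 7 of the 9 for the serial number, and 0 of the 9 for sex or the interaction. With a replicate block for the runs of 12 serial numbers, 4 of the 9 and 2 of the 55, Acin1 among them, were called for rhythm. Deviations within a run had a mean r of 0.04 in the numbers 1 to 48 and of 0.41 (0.18 to 0.59 over 55 pairs) in the numbers 49 to 60, against -0.03 between runs, and 25 of 59 libraries were closest to 1 of their own run. In the numbers 1 to 48, pairs within a run went down to -0.49, and no pairing was assumed. In the numbers 49 to 60 every pair was above 0.1, but these deviations also hold the difference between the 2 sets of serial numbers. The p-values for the serial number count each library as independent. Voom, no filter, added constants of 0.5 and 10, no trend or robust step, and totals without the 6 abundant genes kept each of these counts of calls for the 9 and the 55. The sex difference and the interaction called 0 of the 9 under all alternatives run.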
